A study of Mus musculus with 483 samples.

Results

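The 39 Hox genes of the mouse were followed in single cells of the embryonic aortic region. They are all genes of the deposited count table whose symbol is Hox, a cluster letter from a to d and a number, 39 of the 46078 genes in the table. They comprise 11 genes of HoxA on chromosome 6, 10 of HoxB on chromosome 11, 9 of HoxC on chromosome 15 and 9 of HoxD on chromosome 2. The series holds 483 cells from the aorta with its surrounding gonad and mesonephros, sorted for CD31, an endothelial surface protein, and Kit, a progenitor receptor, and against CD45, a blood surface protein. Of these, 50.5% were labelled aDll4-treated and 49.5% Ctrl; the labels do not explain aDll4 and give no strain, age, dose or time, and both groups passed the same sort gate. The labels name no embryo or culture and call every cell a hematopoietic stem cell by its gate, and they give each cell 1 of 7 cluster numbers. Clusters 1 to 3 are called endothelial here (395 cells, 79.5% of the treated and 84.1% of the Ctrl cells), 4 and 5 mesenchymal (19 treated and 16 Ctrl cells), and 6 and 7 blood (31 treated and 22 Ctrl cells).

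Hox genes encode homeodomain transcription factors that give cells a position along the head-to-tail axis. In each cluster the genes lie in the order in which they are used along the body: low-numbered, anterior genes act in the hindbrain and neck, central genes in the trunk, and high-numbered, posterior genes in the lumbar and sacral body, the limb ends and the urogenital outlet. Polycomb proteins keep Hox clusters silent, Trithorax proteins keep them active, and proteins of the Pbx and Meis families bind DNA together with Hox proteins. In blood, Hoxa9 and Hoxb4 are known for their roles in stem and progenitor cells of the mouse, and Hoxb5 marks long-term stem cells in adult mouse marrow.

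Since no embryo is named, each treatment was taken as a single sample, so no difference was tested and no p-value is given. By Xist and Y-linked reads, both treatments held cells of both sexes, so each drew on more than 1 embryo, of unknown number. Levels are CPM, the reads summed over the cells of a group and scaled to all their gene-assigned reads; their 95% intervals are exact Poisson ones, and shares of cells have exact Clopper-Pearson 95% intervals; both reflect counting error alone, and reads from amplified cDNA are no independent molecules. Median gene-assigned reads per cell were 1005490 in mesenchymal, 849476 in endothelial and 1052305 in blood cells. The class names were checked against markers: 8 endothelial markers summed to 6337 CPM in endothelial cells, 156.6 in mesenchymal and 423 in blood cells; 8 mesenchymal markers to 6805 CPM in mesenchymal cells, 73.2 in endothelial and 12.7 in blood cells; and 9 blood markers to 4211 CPM in blood cells, 117.7 in endothelial and 78.1 in mesenchymal cells. Ptprc, which encodes CD45, was at 0.35 CPM or less in every class. Single reads of strong genes appeared across classes: Cdh5, an endothelial cadherin, had 1 read or more in 56.6% of blood cells but 10 reads or more in 9.43%, and Rac2, a blood GTPase, in 13.4% and 0.506% of endothelial cells. The blood marker Pf4 had them in 38.7% and 3.04% of endothelial cells, and the mesenchymal marker Col3a1 in 36.2% and 7.09%. Many endothelial Hox shares at 1 read lie below these. Shares of Hox-positive cells are therefore given at both limits.

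The promoters of a few genes on which the results turn are shown, taken from RefSeq on GRCm38.p6 as the 250 bases before the start, with CG dinucleotides in capitals. The table held 22 of the 39 genes. For Hoxa10 it held a further window, chr6:52234890-52235189, which is not shown. Counted with the 50 bases after the start, that window holds 21 CG and the one shown 12. Hoxa5 was the highest gene per length in endothelium, Hoxa9 and Hoxa10 stand at the posterior end of the HoxA range in blood and endothelium, and Hoxd13 is the last gene of HoxD and was read in mesenchyme. The Hoxa5 promoter, chr6:52204588-52204837 on the minus strand, holds 28 CG; that of Hoxa9, chr6:52227371-52227620 on the minus strand, holds 3 and lies inside the longer GENCODE gene; that of Hoxa10, chr6:52240855-52241104 on the minus strand, holds 7; and that of Hoxd13, chr2:74667975-74668224 on the plus strand, holds 31.
Hoxa5: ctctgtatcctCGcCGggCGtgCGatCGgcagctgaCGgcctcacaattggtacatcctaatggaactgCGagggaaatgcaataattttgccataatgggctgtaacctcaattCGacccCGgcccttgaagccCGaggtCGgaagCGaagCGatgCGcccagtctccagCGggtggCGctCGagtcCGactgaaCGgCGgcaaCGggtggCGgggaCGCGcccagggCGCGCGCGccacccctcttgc
Hoxa9: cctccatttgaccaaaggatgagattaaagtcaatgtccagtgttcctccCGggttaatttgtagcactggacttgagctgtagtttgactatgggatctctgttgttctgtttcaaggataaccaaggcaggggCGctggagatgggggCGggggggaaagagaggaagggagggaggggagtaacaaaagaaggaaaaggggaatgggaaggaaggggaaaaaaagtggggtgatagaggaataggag
Hoxa10: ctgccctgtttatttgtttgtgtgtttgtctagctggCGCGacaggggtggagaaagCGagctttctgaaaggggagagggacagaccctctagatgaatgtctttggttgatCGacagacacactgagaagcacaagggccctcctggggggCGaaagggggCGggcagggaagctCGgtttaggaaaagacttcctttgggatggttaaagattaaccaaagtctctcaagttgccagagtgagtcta
Hoxd13: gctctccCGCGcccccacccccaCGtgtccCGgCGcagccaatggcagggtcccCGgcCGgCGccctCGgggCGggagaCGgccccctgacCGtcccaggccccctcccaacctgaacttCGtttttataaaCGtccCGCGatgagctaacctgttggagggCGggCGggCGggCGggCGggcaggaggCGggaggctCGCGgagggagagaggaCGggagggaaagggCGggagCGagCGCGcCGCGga
Over the 24 Hox windows of the table, counted with the 50 bases after the start, the median was 14.5 CG (range 4 to 45), against a median of 7 (quartiles 3 and 20) over all 32851 windows. The letters TGATTNAT, a sequence bound by Pbx with Hox proteins, occurred on either strand in the windows of 2 genes, Hoxa2 and Hoxd11, and in 3.22% of all windows. The letters TGACAG, bound by Meis proteins, occurred in those of Hoxa2 and Hoxa3 and in 19.2% of all windows. Neither motif contains the other, and a match is a description of letters only.

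Endothelial cells had reads of Hox genes from the anterior end to groups 9 and 10, mostly of HoxA and HoxB and few of HoxC. A gene was taken as detected in a class when it was read in at least 10% of that class, and 19 Hox genes passed in endothelium. HoxA took 59.3% of all Hox reads there, HoxB 26.7%, HoxD 12.6% and HoxC 1.49%. Per kb of exon, Hoxa5, a regulator of the lung and trachea, was highest at 21.1 CPM per kb. Other high genes were Hoxb7 at 9.63, Hoxb5 at 7.49 and Hoxa9 at 6.06 CPM per kb. Counting error did not bring Hoxa5 near the next gene, but it covers neither embryos nor cells.

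**Figure D1:**
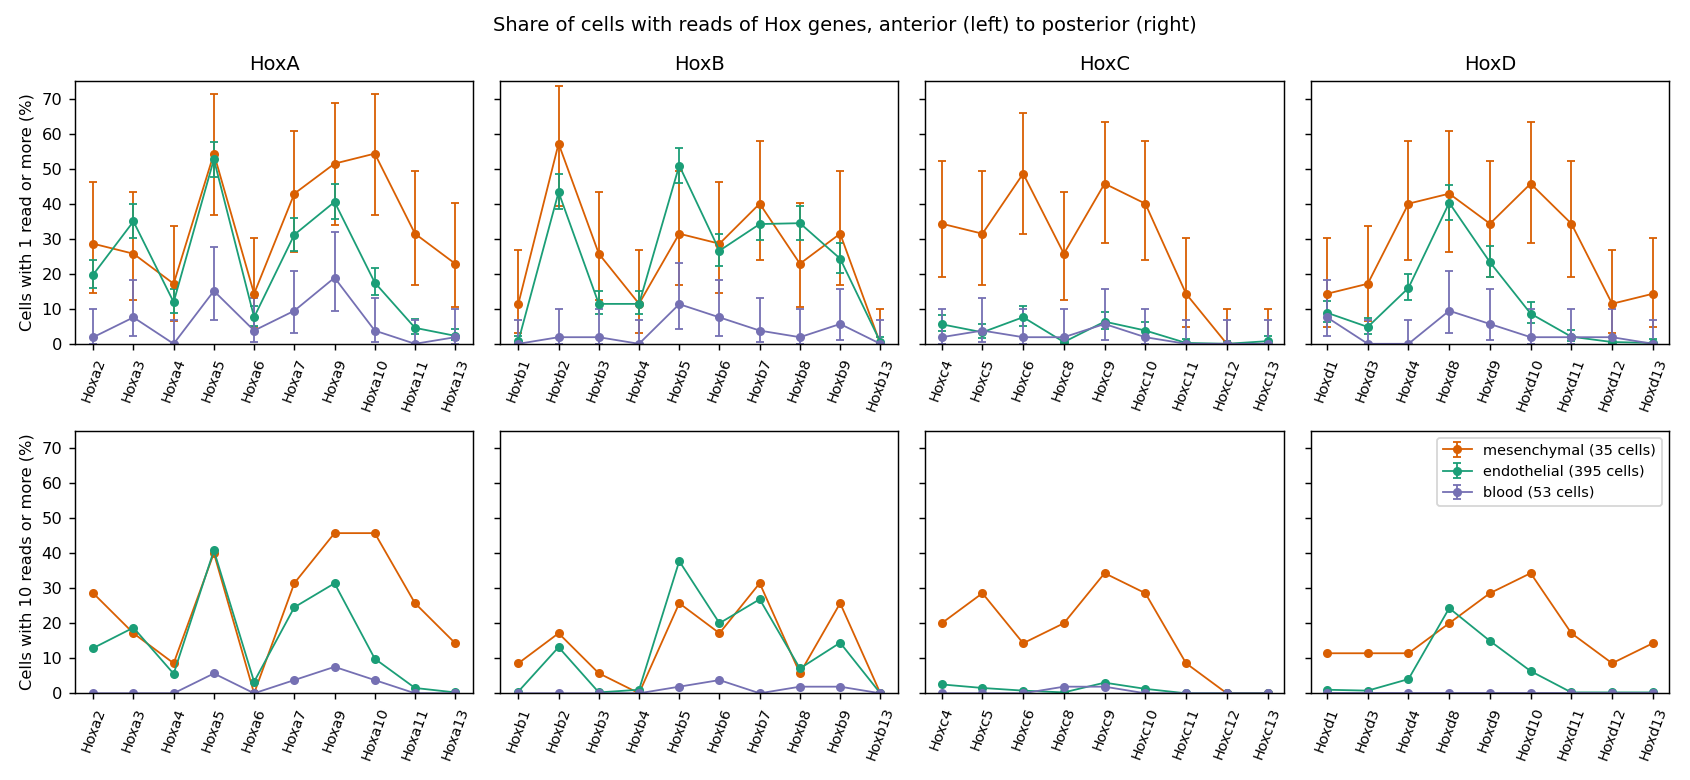
Share of cells (%) with reads of the Hox genes named here, by Hox cluster, from anterior (left) to posterior (right), at 1 read or more (top row, bars are exact 95% intervals) and 10 reads or more (bottom row). Endothelial shares peak at Hoxa5 (52.7%) and Hoxb5 (50.9%) and lie below 8% along HoxC, whereas mesenchymal cells reach Hoxc6 (48.6%) and Hoxd10 (45.7%).

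Along HoxA, the share of endothelial cells with a read was 19.7% for Hoxa2 (a gene of the branchial arches), 34.9% for Hoxa3 (a gene of the thymus and neck) and 11.9% for Hoxa4. It was 52.7% (47.6 to 57.7) for Hoxa5, 7.59% for Hoxa6, 31.1% for Hoxa7 and 40.5% (35.6 to 45.5) for Hoxa9. Beyond Hoxa9 the shares dropped gene by gene, with 17.5% (13.9 to 21.6) for Hoxa10, 4.56% for Hoxa11 and 2.28% for Hoxa13. At 10 reads or more the same 3 genes stood at 9.87%, 1.52% and 0.253%.

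Along HoxB, endothelial shares were 0.759% for the hindbrain gene Hoxb1 and 43.3% for Hoxb2, another hindbrain gene. They were 11.4% for both Hoxb3 and Hoxb4, 50.9% (45.8 to 55.9) for Hoxb5, 26.6% for Hoxb6, 34.2% for Hoxb7, 34.4% for Hoxb8 and 24.3% (20.2 to 28.8) for Hoxb9. Hoxb13, a gene of the hindgut and prostate, had a read in 0.506%. Many reads of Hoxb2 and Hoxb8 were few per cell: at 10 reads or more their shares were 13.2% and 7.09%, while Hoxb5 kept 37.7% and Hoxb7 26.8%.

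Along HoxD, endothelial reads centred on Hoxd8 (40.3% of cells; 24.3% at 10 reads or more), Hoxd9 (23.3%; 14.9%) and Hoxd4 (15.9%; 4.05%). Hoxd1 was read in 8.86%, Hoxd3 in 4.81%, Hoxd10 in 8.61%, Hoxd11 in 2.03%, Hoxd12 in 0.506% and Hoxd13 in 0.253% of endothelial cells. No HoxC gene reached 10% in endothelium; the most frequent were Hoxc6 in 7.59%, Hoxc9 in 6.33% and Hoxc4 in 5.57% of cells. Any HoxC gene was read in 20.3% of endothelial cells, and at 10 reads or more in 6.33%, against 86.8% and 73.2% for any HoxA gene.

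The 3 endothelial clusters differed in how often Hox genes were read. The median number of Hox genes with a read per cell was 7 in cluster 1, 6 in cluster 2 and 4 in cluster 3, and 5, 4 and 2 after every cell was thinned to 120000 reads, with median depths of 931920, 835071 and 669599 reads. Summed Hox levels were closer, at 255.7, 221.7 and 230.5 CPM. Hoxb7 was at 20.5 CPM in cluster 1, 11.48 in cluster 2 and 3.67 in cluster 3. Hoxa9 had the opposite order, with 25.6, 38.5 and 51.1 CPM, as did Hoxa10 with 6.33, 11.8 and 18.2 CPM. The clusters were formed on these cells, so these are descriptions.

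Mesenchymal cells carried reads of nearly the whole Hox set, including its posterior end. There 36 of the 39 genes were detected, all but Hoxb13, Hoxc12 and Hoxc13, which had no read in any of the 35 cells. Taken as 3 counts, a count of 0 in 35 cells allows a share of up to 8.57% of cells with a read; the upper Clopper-Pearson bound is 10.003%. Hoxc12 had no read in any of the 483 cells, and Hoxc13, a gene of hair and nails, had a read in 0.759% of endothelial cells. Detected genes in mesenchyme numbered 28 at 10 reads or more, 27 at 20% of cells and 30 after thinning. The mesenchymal shares below are at 1 read. At that limit the blood gene Rac2 was read in 22.9% of mesenchymal cells, and at 10 reads in 0%, so lower Hox shares lie in that range.

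Per kb, Hoxa10 (20.3 CPM per kb), Hoxa5 (19.9) and Hoxc5 (19.8) were nearly level at the top of mesenchyme, followed by Hoxb9 (14.4), Hoxd10 (12.4) and Hoxa2 (12.2). Counted on exon bases not shared with another gene, the first 3 were Hoxc5, Hoxa10 and Hoxa5 in that order. Hoxb2 was read in 57.1% (39.4 to 73.7) of mesenchymal cells, and Hoxa5 and Hoxa10 each in 54.3% (36.6 to 71.2). The HoxC genes ran from Hoxc4 in 34.3% through Hoxc5 in 31.4%, Hoxc6 in 48.6%, Hoxc8 in 25.7%, Hoxc9 in 45.7% and Hoxc10 in 40% to Hoxc11 in 14.3% of cells. In HoxD, Hoxd10 was read in 45.7%, Hoxd8 in 42.9%, Hoxd4 in 40%, Hoxd9 and Hoxd11 in 34.3%, Hoxd3 in 17.1%, Hoxd1 and Hoxd13 in 14.3% and Hoxd12 in 11.4%.

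The other mesenchymal shares were 51.4% for Hoxa9, 42.9% for Hoxa7, 31.4% for Hoxa11 (a gene of the kidney and forearm), 28.6% for Hoxa2, 25.7% for Hoxa3, 22.9% for Hoxa13 (a gene of the digits and the urogenital outlet), 17.1% for Hoxa4 and 14.3% for Hoxa6. In HoxB they were 40% for Hoxb7, 31.4% for Hoxb5 and Hoxb9, 28.6% for Hoxb6, 25.7% for Hoxb3, 22.9% for Hoxb8 and 11.4% for Hoxb1 and Hoxb4. A level summed over so few cells can rest on 1 of them: the highest cell held 66.6% of the mesenchymal Hoxd12 reads, 48.7% of those of Hoxd11 and 42.6% of those of Hoxb9, but 13.5% of those of Hoxa10.

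**Figure D2:**
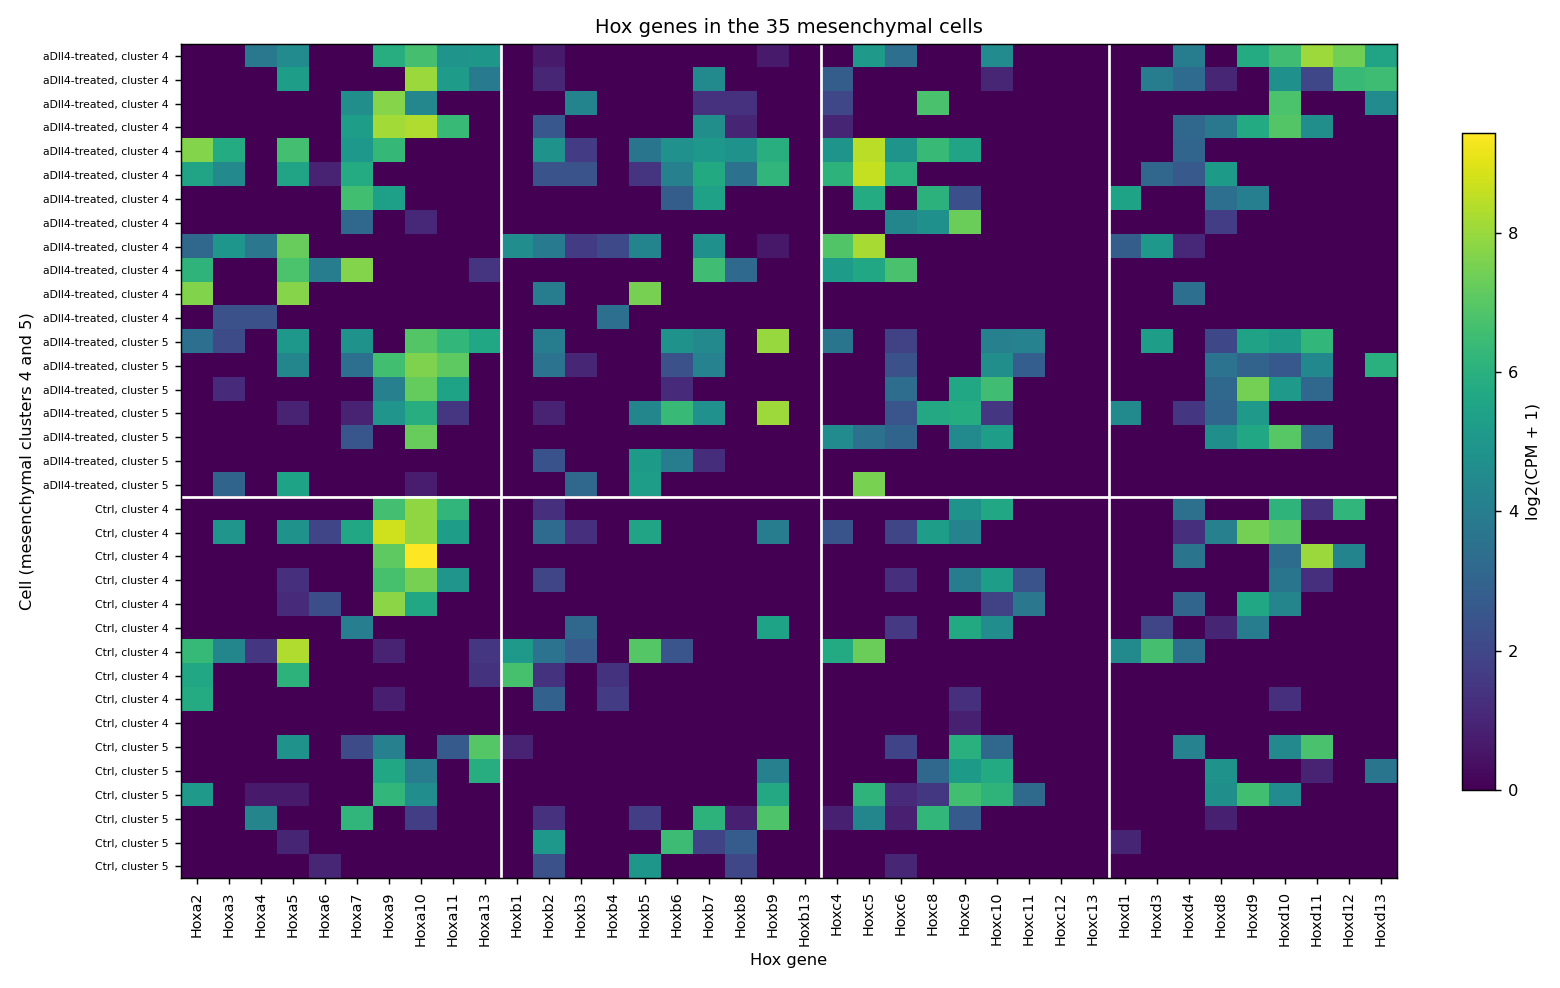
Level of the Hox genes named here, log2(CPM + 1), in each of the 35 mesenchymal cells (rows; 19 aDll4-treated above 16 Ctrl, split by a white line), with genes in cluster order from anterior to posterior in each of HoxA, HoxB, HoxC and HoxD (columns). Some cells hold mainly posterior genes and others mainly anterior and central ones, in both treatments.

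The mesenchymal cells differed among themselves in Hox range. Of the 35 cells, 7 had 10 reads or more of a group 13 gene, 5 of them treated and 2 Ctrl, and 3 held both Hoxa13 and Hoxd13 at that limit. Between the 2 mesenchymal clusters, Hoxb9 was at 10.8 CPM in cluster 4 (22 cells) and 71.9 in cluster 5 (13 cells), and Hoxc10 at 6.01 and 22.8 CPM. The cluster 5 level of Hoxb9 rests on few cells, the highest at 8.07 and 7.99 log2(CPM + 1). Hoxa5 was at 56.1 CPM in cluster 4 and 12.3 in cluster 5.

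Blood cells had few Hox reads. Detected genes were Hoxa9 in 18.9% (9.44 to 31.97), Hoxa5 in 15.1% (6.75 to 27.6) and Hoxb5 in 11.3% (4.27 to 23.03) of the 53 cells, and at 10 reads or more no gene passed 10% of cells: Hoxa9 stood at 7.55%, Hoxa5 at 5.66% and Hoxb5 at 1.89%. Shares at 1 read lie in the range seen for genes of other cell types, such as Rac2 in 13.4% of endothelial cells. Hoxa9 led the level at 13.8 CPM, but 1 cell held 50.7% of its reads, and 1 cell held 90.3% of those of Hoxa7, the next at 6.08 CPM. Hoxa9 came almost wholly from cluster 6, at 22.2 CPM, with 0.0977 CPM in cluster 7. Any Hox gene was read in 73.6% of blood cells at 1 read and in 15.1% at 10 reads.

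Between classes, summed Hox levels were 551 CPM in mesenchymal, 240 in endothelial and 31.7 in blood cells. The genes taken were those read in at least 5% of cells of either class. With 1 CPM added to both levels, 20 of 36 Hox genes were at least 2-fold higher in mesenchymal than in endothelial cells. Lower were 2, where 14.5% and 11.7% of all genes were higher and lower. Only 25 Hox genes passed the filter in endothelium. Those that passed through mesenchyme alone were all among the higher ones, so the filter favoured that count. The median log2 ratio of mesenchymal over endothelial cells was 1.39 for these 36 Hox genes and 0.11 for all genes. The filter favoured this Hox median in the same way, and no median was taken over the 25 genes alone. The higher genes included all 7 detected HoxC genes, with a log2 ratio of 5.06 for Hoxc5 (61.1 CPM in mesenchymal and 0.859 in endothelial cells). Of these 7, only Hoxc4 (2.97), Hoxc6 (2.65) and Hoxc9 (3.40) passed the filter in endothelium, and Hoxc5 passed through mesenchyme alone. The higher genes also included all detected genes of groups 10 to 13, of which only Hoxa10 and Hoxd10 passed the filter in endothelium. Hoxd8 was among the 2 lower ones, at 5.52 CPM in mesenchymal and 16.3 in endothelial cells (log2 ratio -1.41). Several genes were nearly level, such as Hoxa5 (37.3 and 39.7 CPM, -0.09) and Hoxb6 (9.01 and 9.21 CPM, -0.03).

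In blood over endothelial cells, 0 of 25 Hox genes were 2-fold higher and 18 were lower, where 12.6% and 20.8% of all genes were, and the median log2 ratio was -2.04 against 0.03 for all genes. Hoxa4, Hoxb4 and Hoxd4 had no read in blood. Hoxa9 stood at 13.8 CPM in blood and 33.8 in endothelial cells (-1.23), and Hoxd8 at 0.0924 and 16.3 CPM (-3.98). In blood over mesenchymal cells, 0 of 36 were 2-fold higher and 34 lower, where 12.5% and 23.8% of all genes were. Every Hox gene taken here had passed the 5% filter in endothelium or in mesenchyme, which favours lower values in blood. These contrasts compare clusters built on the same cells and carry no test.

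**Figure D3:**
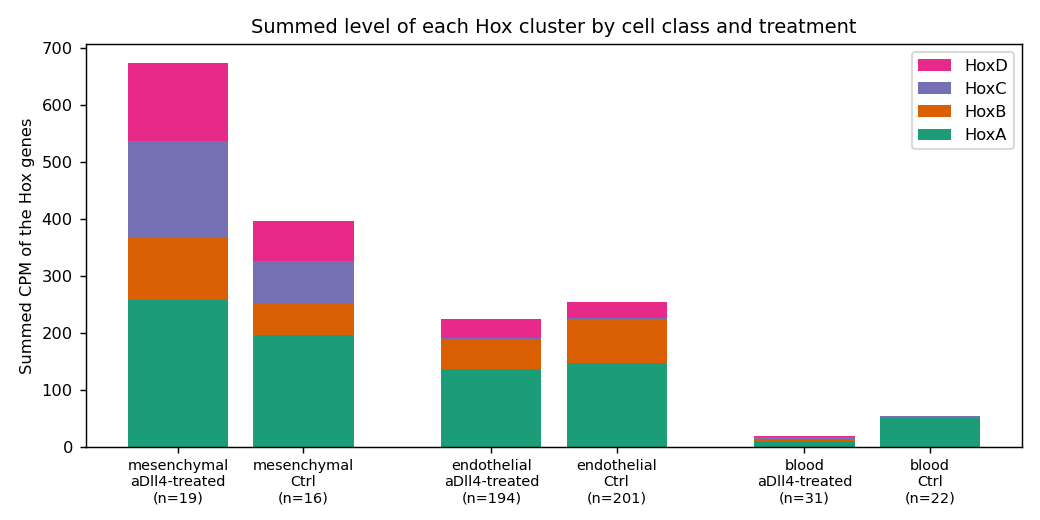
Summed CPM of the Hox genes (vertical axis) in aDll4-treated and Ctrl cells of each class, stacked by Hox cluster, with the number of cells under each bar. Mesenchymal bars stand at 673 and 396 CPM, endothelial bars at 224.6 and 253.6, and blood bars at 17.9 and 53.3.

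The most posterior gene detected differed by class. In mesenchyme it was Hoxa13 (22.9% of cells), Hoxb9 (31.4%), Hoxc11 (14.3%) and Hoxd13 (14.3%). In endothelium it was Hoxa10 (17.5%), Hoxb9 (24.3%), none in HoxC, and Hoxd9 (23.3%). In blood it was Hoxa9 (18.9%), Hoxb5 (11.3%), and none in HoxC or HoxD. At 10 reads or more, the endothelial HoxA limit was Hoxa9 (31.4% of cells), the mesenchymal HoxC limit was Hoxc10 (28.6%), blood had none, and the other limits were the same genes.

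Cell by cell, a gene of groups 10 to 13 was read in 71.4% of mesenchymal (53.7 to 85.4), 28.1% of endothelial (23.7 to 32.8) and 13.2% of blood cells (5.48 to 25.3). At 10 reads or more these shares were 51.4%, 13.9% and 3.77%. The median number of Hox genes with a read was 11, 6 and 1 per cell in that order of classes, and 9, 4 and 0 after thinning. In mesenchyme the share with such a gene was 63.2% of treated and 81.3% of Ctrl cells; in endothelium it was 27.8% and 28.4%, and in blood 12.9% and 13.6%.

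**Figure D4:**
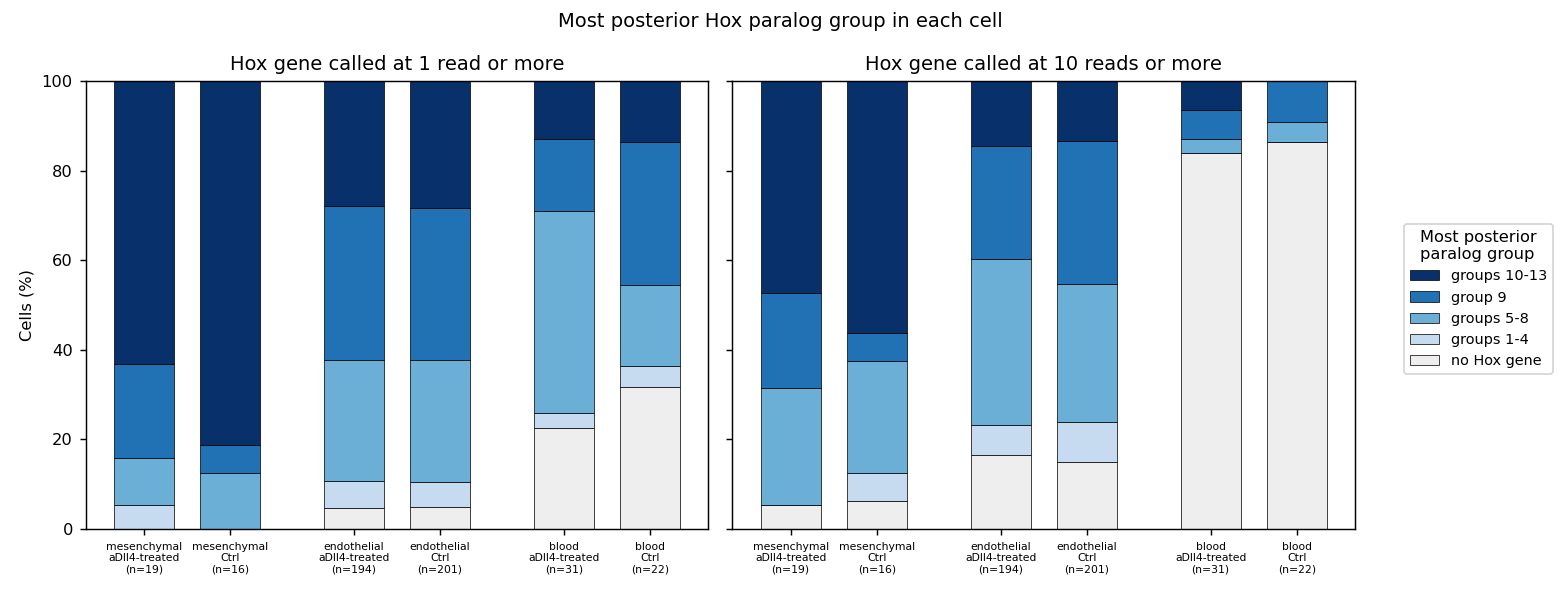
Cells (%) by the most posterior Hox paralog group they hold, at 1 read or more (left panel) and 10 reads or more (right panel), for aDll4-treated and Ctrl cells of each class. In endothelium the share with a gene of groups 10 to 13 is 27.8% in treated and 28.4% in Ctrl cells.

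Group 13 genes at 10 reads or more were found in 1 of the 395 endothelial cells, a treated cell of cluster 3. It held reads of 20 Hox genes, among them 33 reads of Hoxa13 and 42 of Hoxd13, and Hoxa10 at 159.3 CPM. The same cell had Pecam1, which encodes CD31, at 143.1 CPM, Cdh5 at 50.1, Col3a1, a fibrillar collagen, at 131.8 and Pdgfra, a mesenchymal receptor, at 25.1 CPM. It was the only endothelial cell with a Hoxd13 read. Without it, the endothelial Hoxa10 log2 ratio of treated over Ctrl was -0.44 in place of -0.26; the detected genes and limits of that class were unchanged in number.

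Genes that lie together or share a paralog number tended to be read in the same cells. After thinning, the phi coefficient between pairs in endothelium had a median of 0.22 over 9 pairs of neighbours in a cluster, 0.27 over 7 pairs of the same paralog group in different clusters, 0.11 over 28 other pairs of one cluster and 0.09 over 61 remaining pairs. The strongest endothelial pair was Hoxa7 with Hoxa9 (phi 0.45): Hoxa7 was read in 54.1% of cells with Hoxa9 and in 11.9% of cells without it. In mesenchyme the medians were 0.29 over 22 pairs, 0.31 over 23, 0.04 over 81 and 0.02 over 309, led by Hoxa10 with Hoxd10 (phi 0.77; 92.3% of cells with Hoxd10 and 13.6% of those without). Cells share depth and sources across pairs, and the counts of genes with overlapping exons are uncertain, so these are descriptions across cells.

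Between treatments, log2 ratios in endothelium with 1 CPM added to both levels stayed within 2-fold for every measured Hox gene. With 0.1 CPM added, which damps low genes less, 1 gene was past 2-fold higher (Hoxd10) and 4 lower (Hoxb4, Hoxb9, Hoxc4 and Hoxc6). With 1 CPM added, of 25 Hox genes read in at least 5% of endothelial cells, 0 were 2-fold higher and 0 lower in treated cells, where 1.11% and 1.46% of all genes were. By sign, 18 of the 25 lay below 0 against 49.8% of all genes, with a median log2 ratio of -0.23 against 0.00. Below 0 were 8 of 9 genes in HoxA (median -0.23), 7 of 8 in HoxB (median -0.44) and 2 of 3 in HoxC (median -0.34). In HoxD 4 of 5 were above 0 (median 0.04), of which Hoxd1 and Hoxd4 lay close to 0, at 0.04 and 0.03. By position, 6 of 10 genes of groups 1 to 4 lay below 0, as did all 9 of groups 5 to 8 and 3 of 6 of groups 9 and 10.

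**Figure D5:**
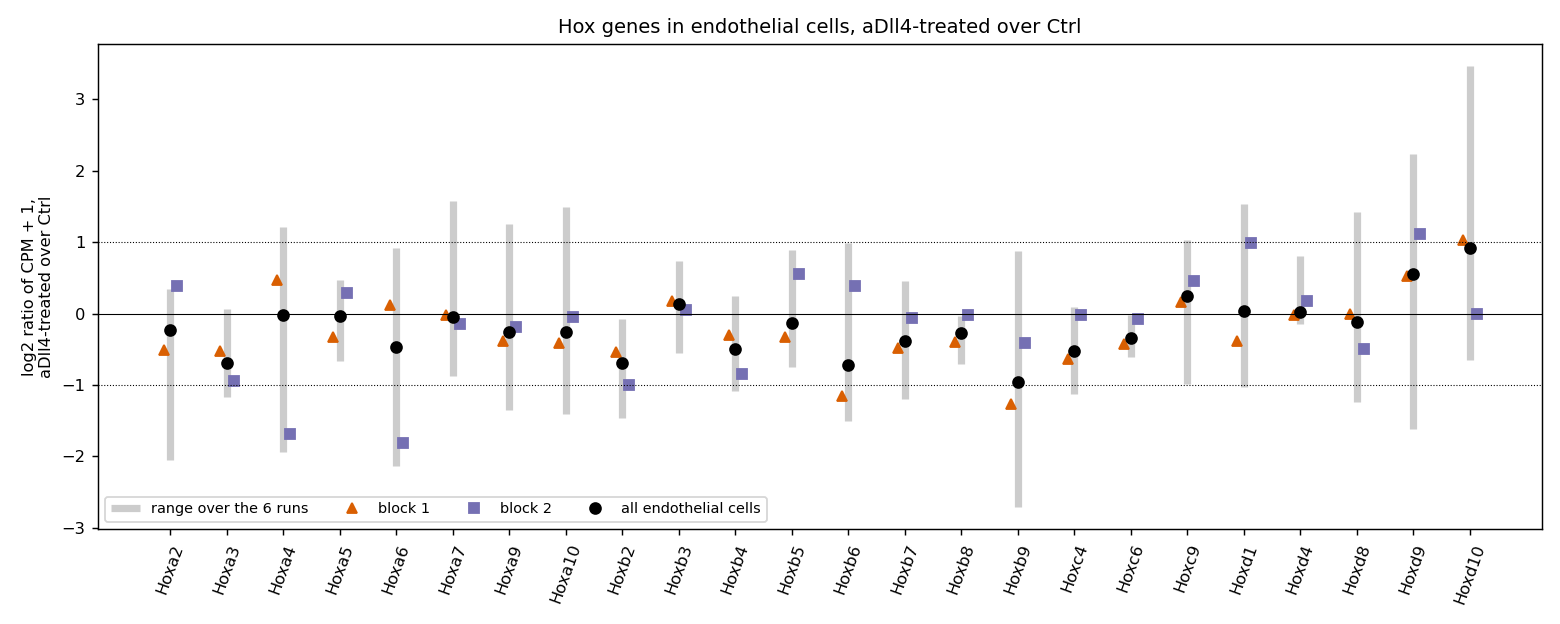
log2 ratio of aDll4-treated over Ctrl CPM (1 CPM added to both) for measured Hox genes in endothelial cells: all cells (black circles), block 1 (triangles), block 2 (squares) and the range over the 6 runs of library numbers (grey bars); dotted lines mark 2-fold. Black circles run from -0.97 for Hoxb9 to 0.91 for Hoxd10, and the blocks often stand on opposite sides of 0.

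Library numbers in the labels form 6 runs, of which the first 4 make block 1 and the last 2 block 2. Hoxb9, a gene of the thoracic skeleton, had a lowest, median and highest run of 2.62, 6.39 and 10.4 CPM in treated cells, against 4.98, 12.5 and 22.7 CPM in Ctrl cells. The ranges overlap, and treated cells were lower in 5 of 6 runs. Summed over all cells it was 6.25 CPM in treated and 13.2 in Ctrl cells (log2 ratio -0.97), and the share of cells was 18.6% and 29.9%, a difference of -11.3 points (-19.5 to -2.83). Blocks 1 and 2 gave log2 ratios of -1.26 and -0.42.

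Hoxb6, its cluster neighbour on the anterior side of Hoxb7 and Hoxb8, was at 6.59 CPM in treated and 11.53 in Ctrl cells (-0.72), with 20.6% and 32.3% of cells, -11.7 points (-20.2 to -3.01). The blocks disagreed in sign, -1.15 and 0.38. Hoxb4 was at 0.326 CPM in treated and 0.866 in Ctrl cells (-0.49), with shares of 6.70% and 15.9%, -9.22 points (-15.5 to -2.97), and values of -0.30 and -0.84 in blocks 1 and 2. These 3 were the endothelial genes whose share interval excluded 0, before any allowance for the 25 genes looked at.

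Hoxb2 was lower in treated cells in 6 of 6 runs, at 2.22, 3.31 and 5.29 CPM (lowest, median, highest) in treated and 3.97, 5.82 and 12.2 CPM in Ctrl cells, with overlapping ranges and a log2 ratio of -0.70. Hoxa3, which in the mouse restrains blood formation by hemogenic endothelium, was lower in 5 of 6 runs and at 6.504 CPM in treated and 11.1 in Ctrl cells (-0.69). On the other side, Hoxd9 was at 9.73 CPM in treated and 6.32 in Ctrl cells (0.55), higher in 4 of 6 runs. Its shares were 24.2% and 22.4%, and 1 treated cell held 30.7% of its treated reads. Leaving out each run gave Hoxd9 ratios from 0.03 to 0.83. Hoxd10 was at 4.71 and 2.03 CPM (0.91), but its shares were 8.76% and 8.46%, and it had no endothelial read in block 2.

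The 2 genes of highest CPM were close between treatments: Hoxa5 was at 39.1 CPM in treated and 40.1 in Ctrl cells (-0.03) and Hoxa9 at 30.5 and 36.7 CPM (-0.26). The blood-linked Hoxb5 was at 19.8 CPM in treated and 21.8 in Ctrl cells (-0.13), with shares of 48.5% and 53.2%. A further 14 measured genes lay between -0.53 (Hoxc4) and 0.24 (Hoxc9).

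The lower tendency was not seen in every subset. Blocks 1 and 2 had medians of -0.33 and -0.02. Sex of the cells moved with treatment and block: by Xist and Y-linked reads, block 1 held 0 Xist-positive treated cells and 85 Xist-positive Ctrl cells, and block 2 held 0 Y-positive treated cells and 29 Y-positive Ctrl cells. The median was -0.26 in the Y-positive cells of block 1 and 0.11 in the Xist-positive cells of block 2, where 8 of 25 genes lay below 0. Mesenchymal markers summed to 100.2 CPM in treated and 49.3 CPM in Ctrl endothelial cells. Of 7 measured, 3 were past 2-fold higher, where 1.11% of all genes were, and Pdgfra lay at -0.23. Lum was at 15.7 and 0.171 CPM and Col3a1 at 27.4 and 10.9 CPM, both past 2-fold higher in each block. Blocks 1 and 2 gave 2.78 and 0.01 for Col1a1 and 1.22 and -0.58 for Col1a2. The part of these markers in the Hox values was not tested.

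In the 35 mesenchymal cells, 12 of 36 measured Hox genes were 2-fold higher and 2 lower in treated cells, where 13.1% and 12.3% of all genes were, and 6 lay below 0 and 30 above, against 50.6% of all genes below 0. The median log2 ratio was 0.58 against -0.01 for all genes. The larger ones were Hoxc6, at 11.8 CPM in treated and 0.758 in Ctrl cells (2.86), Hoxd13 at 11.9 and 0.821 CPM (2.83), Hoxc5 at 93.97 and 19.6 CPM (2.21) and Hoxc4 at 20.4 and 3.98 CPM (2.11). Hoxb7 was at 18.4 and 5.68 CPM (1.54) with a read in 63.2% of treated and 12.5% of Ctrl cells, a difference of 50.7 points (18.4 to 70.5). Hoxb1, among the 2 lower genes, was at 2.20 CPM in treated and 6.31 in Ctrl cells (-1.19).

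These values rest on 19 and 16 cells. In block 1 alone, 17 of the 36 lay above 0 with a median of -0.01, and in block 2, with 9 treated and 7 Ctrl cells, 31 did with a median of 1.56. Hoxd13 reads came from 4 treated cells and 1 Ctrl cell. Mesenchymal markers summed to 6084 CPM in treated and 7716 in Ctrl mesenchymal cells, and blood markers to 11.9 and 161.8 CPM; their part was not tested.

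In blood, 2 of 11 measured Hox genes were 2-fold higher in treated cells (Hoxb5 and Hoxc9) and 2 lower (Hoxa7 and Hoxa9), where 10.4% and 6.5% of all genes were. Hoxb5 was at 1.42 CPM in treated cells and had no read in Ctrl cells, where 3 reads would give 0.143 CPM. It was read in 19.4% of treated cells, at 0.141 CPM in block 1 and 3.71 in block 2. Hoxc9 was at 3.23 CPM in treated and 0.0476 in Ctrl cells, with a read in 6.45% of treated cells. Its treated level was 4.98 CPM in block 1, from 4.55% of the cells, and 0.0844 in block 2. Both higher genes thus rest on few cells. Hoxa9 was at 3.59 CPM in treated and 29.9 in Ctrl cells (-2.75), with reads in 4 of 31 treated and 6 of 22 Ctrl cells, and 1 Ctrl cell held 60.3% of the Ctrl reads. Hoxa7 had 1 read in treated cells and 328 in Ctrl cells, 90.5% of them in 1 cell.

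Partners and regulators of Hox proteins were read from lists of known genes. Beside the counts by sign and size given for them in endothelium, 49.8% of all genes lay below 0, 1.11% were 2-fold higher and 1.46% 2-fold lower in treated cells. Of 9 Hox cofactors of the TALE class, 6 were measured in endothelium, with 2 above and 4 below 0 in treated cells (median -0.29), among them Pbx3 (-0.25), Meis2 (11.6 CPM in treated and 20.3 in Ctrl cells, -0.76) and Pknox1 (18.6 and 12.5 CPM, 0.53). Of 14 Polycomb genes, 2 were above and 12 below 0 (median -0.12), and 1 passed 2-fold, Cbx7 at 5.16 CPM in treated and 1.02 in Ctrl cells (1.61). Rnf2, the catalytic ring protein, and Ezh2, the methyltransferase, were at -0.16 and -0.22. Of 9 Trithorax and activator genes 5 were above and 4 below 0 (median 0.02), with Kdm6a, a histone demethylase on the X chromosome, at 0.69, Psip1 at -0.39, Men1 at -0.25 and Kmt2d at -0.08. Blocks 1 and 2 differed in sign for Pbx3 (0.33 and -1.38), Men1 (-0.42 and 0.21) and Kmt2d (-0.09 and 0.07).

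Of 6 measured genes of the Cdx and retinoid list, 3 lay above and 3 below 0, with Cyp26b1, a retinoic acid oxidase, at 75.9 CPM in treated and 92.95 in Ctrl endothelial cells (-0.29), Rarb at -0.31, Cyp26a1 at 0.31 and Gmnn at 0.22. Blocks 1 and 2 gave -0.33 and -0.25 for Cyp26b1, but -1.47 and 1.31 for Rarb, -1.65 and 2.95 for Cyp26a1 and -0.01 and 0.72 for Gmnn. Cyp26a1 was read in 6.58% of endothelial cells. Of 6 measured noncoding genes of the Hox clusters, 4 were above and 2 below 0; Hoxa11os, which overlaps Hoxa11, was at 2.08 and 0.481 CPM (1.06), Hoxd3os1 at 0.07, Hoxaas3 at -0.06 and Hoxb3os at -0.09. Since the libraries do not mark strand, reads of Hoxa11 and Hoxa11os cannot be told apart where they overlap. Of 10 measured genes that flank the clusters, 4 were above and 6 below 0 (median -0.18), with Smug1 at -0.84, Snx11 at -0.69, Cbx5 at 0.09 and Hnrnpa2b1 at 0.02.

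Across classes, the cofactor Meis1 was at 208.01 CPM in mesenchymal, 139.6 in blood and 15.6 in endothelial cells, and Meis2 at 162.5, 0.0185 and 16.2 CPM. Aldh1a2, which makes retinoic acid, was at 251 CPM in mesenchymal, 2.09 in blood and 0.567 in endothelial cells. Cyp26b1, which degrades it, was at 4.405 CPM in mesenchymal, 0.573 in blood and 84.9 in endothelial cells. Markers of mesonephric and gonadal epithelium summed to 69.3 CPM in mesenchymal, 4.82 in endothelial and 0.388 in blood cells, those of neural crest and neurons to 18.04, 1.24 and 13.6 CPM, and those of germ cells to 28.3, 4.22 and 17.98 CPM. The germ cell sums in mesenchyme and blood rest on few cells. Pou5f1, at 21.3 CPM in mesenchyme, was read in 5.71% of its cells, and Dppa3, at 15.7 CPM in blood, in 1.89% of blood cells.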

How the data were processed

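Per the labels' protocols, single sorted cells were processed by Smart-seq2 with Nextera XT libraries, without molecular identifiers or strand information. The authors deposited raw read counts per gene and cell; per the submitters' processing notes, reads were aligned with GSNAP to mm10 and counted with HTSeq 0.6.0. Not given in the sources used here: annotation release, counting mode and any cell filter. All 483 cells were used and doublets were not called.

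Symbols and exons came from GENCODE M21 on the same build, and promoters from RefSeq; 16 of the 39 Hox genes share exon bases with another gene, most of all Hoxd3 (62.9%), Hoxb3 (52.9%) and Hoxd4 (52.3%), and their values are uncertain. Counts were summed per class and treatment and scaled to gene-assigned totals (CPM). A gene was measured with a read in at least 5% of a class, and in contrasts between classes with a read in at least 5% of either. Differences are log2 ratios with 1 CPM added to both levels, and 2-fold was the size named. Share differences have Newcombe intervals. Total gene-assigned reads were 218588875 in treated and 223958669 in Ctrl cells, and depth per cell ranged from 123097 to 2870618. Thinning drew 120000 reads per cell.

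All 39 Hox genes entered the counts, sums and medians, and those with a read in at least 10% of a class were named with values; from other lists, the 2 genes of highest CPM and the 2 of largest ratio were named. Values of a few genes are not reported here or drawn in the figures. The members and lists were chosen with earlier results of these data known. Alternatives were edgeR 4.0.16 TMM and DESeq2 1.42.0 size factors for scaling only, other pseudocounts, filters and read limits, blocks, runs and sexes; those on mesenchymal cells and on the single cell with Hoxd13 reads were chosen after seeing the data. Computations used Python 3.11.15, and the ratio script was tested on simulated data.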

Additional observations from a re-analysis of the deposited data

Results flagged for a closer look

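The treated over Ctrl log2 ratios had opposite signs in mesenchymal and endothelial cells for 19 of the 25 Hox genes measured in both, and for the median of the measured Hox genes. In 4 of the 19 both ratios were at least 0.5 in size, and these are given here; the difference was not tested in any of them. For Hoxa3 the ratio was 1.46 in mesenchymal and -0.69 in endothelial cells. Hoxb6 had 0.75 in mesenchymal and -0.72 in endothelial cells, and Hoxb9 had 1.37 and -0.97. Hoxc4 had 2.11 in mesenchymal and -0.53 in endothelial cells. The median over the measured Hox genes was 0.58 in mesenchymal and -0.23 in endothelial cells. The mesenchymal values rest on 19 treated and 16 Ctrl cells, and in block 1 the mesenchymal ratios of Hoxa3 and Hoxb6 were -0.30 and -0.02.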

How the results depend on the processing

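No paired analysis was possible because the replicate numbers in the titles only name cells and the results come from no test; each run holds cells of both treatments, and its own ratios are given as descriptions. Detected genes numbered 0 in blood at 10 reads or at 20% of cells, 11 at 5% of cells, 1 after thinning and 5 in block 2. The most posterior endothelial group became 9 in HoxA at 10 reads or 20% of cells, 9 in HoxC and 10 in HoxD at 5% of cells, and in HoxD 10 in block 1 and 8 in block 2. In mesenchyme it became 10 in HoxC at 10 reads, 20% of cells, thinning or block 2, and in HoxD 11 at 20% of cells and 12 in block 2. In blood it became 0 in HoxA and HoxB at 10 reads or 20%, 9 in HoxB, HoxC and HoxD at 5%, 0 in HoxB after thinning or in block 1, and 8 in HoxD in block 2; leaving out each run gave 0 to 5 in HoxB and 0 to 8 in HoxD. Median Hox genes per treated and Ctrl endothelial cell were 3 and 3 at 10 reads and 4 and 5 after thinning, with 4 in Ctrl cells of block 2; the mesenchymal Ctrl median was 5.5 at 10 reads, and the treated blood median 0 at 10 reads or after thinning.

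Endothelial Hox genes past 2-fold, higher and lower, numbered 1 and 4 with 0.1 CPM added, 1 and 2 in block 1, 1 and 2 in block 2, 1 and 1 in Y-positive cells of block 1, and 4 and 4 in Xist-positive cells of block 2, where 8 lay below 0; 1 was lower with no filter on low genes, and leaving out each run gave 0 to 1 each way. Mesenchymal genes past 2-fold numbered 7 higher and 0 lower by mean log2(CPM + 1), 6 lower in block 1, 24 higher and 4 lower in block 2, and 7 lower in cluster 5; 17 lay above 0 in block 1 and 19 in cluster 5. By unshared exon length the mesenchymal ranks were 1 for Hoxc5, 2 for Hoxa10 and 3 for Hoxa5, and the blood ranks 1 for Hoxa7, 2 for Hoxa9 and 3 for Hoxa5. The cause of these changes was not tested. Over 19 settings, Hoxa9, Hoxb4, Hoxb9 and Hoxc6 stayed below 0 and Hoxc9 and Hoxd9 above 0 in endothelium. The all-gene median was 0.0071 with TMM and -0.0080 with DESeq2 scaling. The shares rest on 35 mesenchymal and 53 blood cells, and blood cells with a read of Hoxa9 or Hoxb5 had a median of 1 read, so these shares depend on the read limit.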

Other observations

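Within mesenchyme, Hox genes stood at different levels in clusters 4 and 5. In cluster 4, Hoxa3 stood at 9.67 CPM, against 1.30 CPM in cluster 5, and Hoxd8, a central gene also expressed in vessels, at 3.56 against 8.12 CPM. Hoxa10 was read in 45.5% of cluster 4 and 69.2% of cluster 5 cells. Hoxd9 was read in 30.6%, 20.7% and 8.96% of cells of endothelial clusters 1, 2 and 3.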
